A study of Mus musculus with 20 samples.

Results

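Reln, Colec10, Fcna, Tmem56, Rgs5, Vipr1, Pth1r, Ecm1 and Cygb are 9 genes known from the quiescent, vitamin A-storing state of hepatic stellate cells in the mouse. They were taken by symbol from the gene tables of 20 RNA-seq libraries, in which they are 9 of 24848 genes. All 9 were in the tables, and all 9 were among the 14751 genes with enough counts to be tested. The cells came from the liver of C57BL/6 mice, and no other treatment, genotype or age is given in the labels. HSC-MF-7d are myofibroblasts grown from hepatic stellate cells, in culture for 7 days by their titles but for 3 days by the series' design text, so that their time in culture is uncertain. HSC are hepatic stellate cells and PMSC are portal mesenchymal stem cells, neither with a culture time in its label, and both are called fresh here. PMSC-MF-3d and PMSC-MF-7d are myofibroblasts grown from PMSC for 3 and 7 days. Each of the 5 groups held 4 libraries. The sources used here do not say how the cells were isolated or sorted, or whether animals were pooled.

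Stellate cells are the pericytes of the liver sinusoid. In the healthy liver they store retinyl esters and secrete matrix proteins, growth factors and lectins, and after injury or on plastic they turn into contractile, collagen-producing myofibroblasts and lose the genes of the resting state. The 9 genes cover several sides of that resting state. Reln, Ecm1, Colec10 and Fcna encode secreted proteins, Vipr1 and Pth1r hormone receptors, Rgs5 a brake on receptor signalling, Tmem56 a membrane protein and Cygb an oxygen-binding globin.

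The depth of a library, as the sum of its expected counts, lay between 13572278 and 18382038 for HSC-MF-7d, 14806349 and 18650355 for HSC, and 11810532 and 21438753 for PMSC. PMSC-MF-3d libraries held 23641579 to 24258856 counts and PMSC-MF-7d libraries 22738017 to 26675589. The label of the HSC libraries was checked on 30 other stellate markers. They summed to 23342 to 32512 CPM in HSC libraries against 11006 to 16745 CPM in PMSC libraries. By edgeR at an adjusted p under 0.05, 22 of them were higher in HSC than in PMSC, 5 lower and 3 not called. Of all 14751 tested genes, 40.1% were higher and 33.6% lower in that comparison. CPM are counts scaled to a common library size (edgeR, with TMM factors). Lrat, which makes retinyl esters, averaged 1568 ± 73.1 CPM in HSC (SD, n = 4). Among the 5 lower markers, Adamtsl2 averaged 299 ± 147 CPM in HSC and 1231 ± 282 CPM in PMSC. The HSC libraries also carried markers of other liver cells. Hepatocyte markers, 22 genes, summed to 5167 to 26746 CPM in HSC libraries and to 1288 to 2288 CPM in PMSC libraries. Sinusoidal endothelial markers, 18 genes, summed to 11596 to 14522 CPM in HSC libraries against 108 to 389 CPM in PMSC libraries. Kupffer and macrophage markers, 18 genes, summed to 3951 to 13572 CPM in HSC libraries against 49.3 to 67.9 CPM in PMSC libraries. In bulk RNA, fewer cells of a type and less RNA per cell cannot be told apart, and the part of these other cells in the values below was not tested unless stated.

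HSC were the richest source of 8 of the 9 genes, and HSC-MF-7d kept little of any of them. In TPM, which corrects for transcript length and so allows levels to be compared between genes, Ecm1 led in HSC with a mean level of 10086 ± 2232 TPM, followed by Fcna with 3629 ± 474 TPM (SD, n = 4 each). The mean levels of the other genes in HSC were 2551 TPM for Rgs5, 1841 TPM for Colec10, 1231 TPM for Reln, 1050.4 TPM for Vipr1, 841 TPM for Tmem56, 560.2 TPM for Pth1r and 346 TPM for Cygb. Of the sum of the 5 group means in CPM, HSC held 99.6% for Colec10, 99.5% for Fcna, 97.9% for Vipr1, 97.5% for Tmem56, 96.1% for Reln, 95.8% for Rgs5, 90.4% for Pth1r and 73.4% for Ecm1. Cygb was the exception, with 21.1% of its sum in HSC and 77.96% in PMSC. Each of the 8 genes other than Cygb was higher in HSC than in each of the other 4 groups by edgeR at an adjusted p under 0.05, as were 18.5% of all 14751 tested genes. Cygb too was higher in HSC than in PMSC-MF-3d and PMSC-MF-7d, which makes 9 of 9 genes higher in both of those comparisons, where 40.2% and 37.6% of all tested genes were higher and 38% and 37.2% lower.

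**Figure D1:**
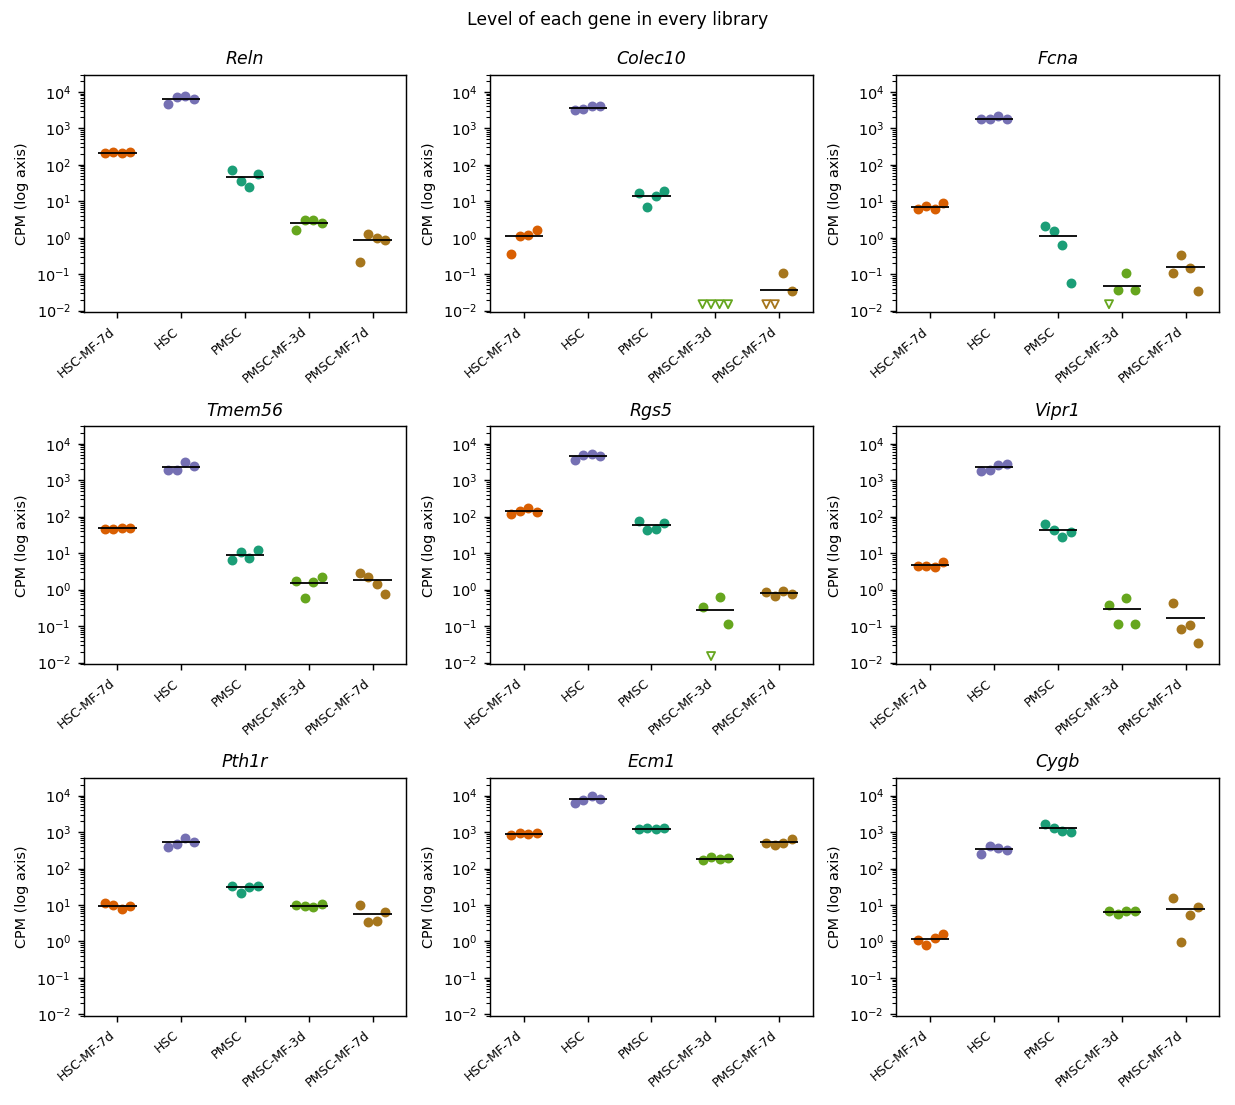
Level of each of the 9 genes in every library, in CPM on a log axis, by group, with 4 points per group (1 per library) and a line at the group mean. Open triangles at the bottom mark libraries with a count of 0. For 8 genes the HSC points lie above all other groups, from 402 to 9821 CPM, and for Cygb the PMSC points lie highest, from 1036 to 1677 CPM.

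In the comparison of HSC-MF-7d with HSC, all 9 genes fell, where 38.5% of all tested genes were lower and 36% higher, and their largest adjusted p was 1.1e-10 (edgeR). The median log2 fold change of the 9 genes was -5.76, against -0.03 over all genes. As a share of the HSC mean, HSC-MF-7d kept 11.5% of Ecm1, 3.32% of Reln, 3.11% of Rgs5, 2.02% of Tmem56 and 1.84% of Pth1r. Less than 1% was kept of 4 genes: 0.384% of Fcna, 0.351% of Cygb, 0.208% of Vipr1 and 0.0292% of Colec10. Of the 9443 genes with a mean of at least 10 CPM in HSC, the median gene kept 88.45%, while 14.8% of genes kept under 20% and 5.67% kept under 1%. HSC replicate 1 was the lowest HSC library for all 9 genes and had the highest sum of Kupffer markers, 13572 CPM against 3951 to 6942 CPM in the other 3 HSC libraries. Without that library all 9 genes were still called lower in HSC-MF-7d. Of the other cell types' markers, 21 of 22 hepatocyte, 18 of 18 sinusoidal endothelial and 18 of 18 Kupffer genes fell too, with a median share kept of 0.0124% for hepatocyte markers, 0.438% for sinusoidal endothelial markers and 0.380% for Kupffer markers, and the hepatocyte genes Fabp1, Serpina1a, Serpina1b and Serpina1c and the Kupffer gene Timd4 were at 0 in HSC-MF-7d.

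**Figure D2:**
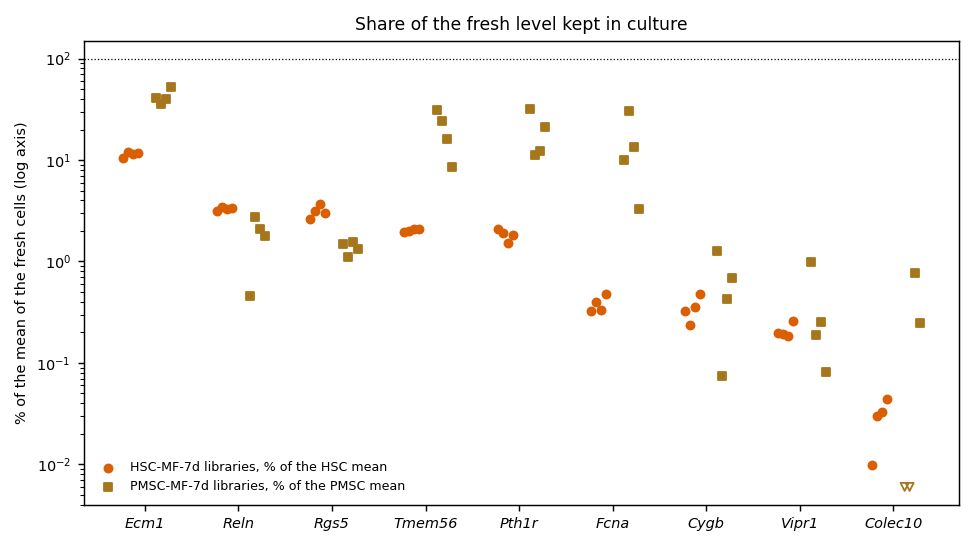
Share of the fresh level kept in culture, in percent on a log axis, for each gene, with 4 circles for the HSC-MF-7d libraries as a percentage of the HSC mean and 4 squares for the PMSC-MF-7d libraries as a percentage of the PMSC mean. Open triangles mark a count of 0 and the dotted line marks the fresh level. The HSC-MF-7d circles run from 12.0% for Ecm1 down to 0.00988% for Colec10.

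The promoters of the genes that kept most and least in HSC-MF-7d are shown, since these genes fell together but to different depths. Promoter windows were found for 7 of the 9 genes in RefSeq sequence of build GRCm38.p6, the assembly behind mm10. The 250 bases before the annotated start are printed 5′ to 3′ on the gene's own strand, in lower case, with matches to searched motifs in capitals. Ecm1 (chr3:95739570-95739819, minus strand), Reln (chr5:22344706-22344955, minus strand) and Rgs5 (chr1:169655251-169655500, plus strand) kept the largest shares, and Fcna (chr2:25627975-25628224, minus strand) and Vipr1 (chr9:121642466-121642715, plus strand) the smallest shares among the genes with a window.
Ecm1: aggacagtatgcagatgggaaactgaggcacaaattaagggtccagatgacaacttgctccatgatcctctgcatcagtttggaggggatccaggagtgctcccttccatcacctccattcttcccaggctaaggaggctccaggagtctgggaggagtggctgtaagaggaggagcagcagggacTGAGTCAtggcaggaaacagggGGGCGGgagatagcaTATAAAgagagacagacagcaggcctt
Reln: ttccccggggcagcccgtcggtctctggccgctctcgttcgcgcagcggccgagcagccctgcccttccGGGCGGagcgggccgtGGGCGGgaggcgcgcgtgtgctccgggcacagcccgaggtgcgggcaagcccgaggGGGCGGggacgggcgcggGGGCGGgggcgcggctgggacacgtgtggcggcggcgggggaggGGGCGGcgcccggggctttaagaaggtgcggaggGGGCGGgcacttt
Rgs5: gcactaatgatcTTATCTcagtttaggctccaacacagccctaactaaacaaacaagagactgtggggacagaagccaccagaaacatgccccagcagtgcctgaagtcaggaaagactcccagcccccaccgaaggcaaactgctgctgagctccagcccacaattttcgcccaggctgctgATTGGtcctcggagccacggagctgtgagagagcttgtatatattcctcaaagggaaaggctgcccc
Fcna: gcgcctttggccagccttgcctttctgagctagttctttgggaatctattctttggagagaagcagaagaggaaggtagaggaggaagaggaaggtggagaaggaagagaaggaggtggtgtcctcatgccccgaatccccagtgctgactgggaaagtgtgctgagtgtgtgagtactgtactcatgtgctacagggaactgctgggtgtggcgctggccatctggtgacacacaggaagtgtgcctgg
Vipr1: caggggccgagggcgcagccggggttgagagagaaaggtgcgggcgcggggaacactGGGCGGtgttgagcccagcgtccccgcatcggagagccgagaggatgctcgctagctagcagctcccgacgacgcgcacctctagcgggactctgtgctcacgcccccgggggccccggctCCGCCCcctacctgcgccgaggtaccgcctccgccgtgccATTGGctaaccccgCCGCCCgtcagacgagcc
The motifs searched on both strands were the TATA box TATAAA, the CCAAT box CCAAT, the GC box GGGCGG, the GATA motif AGATAA, the LIM homeobox motif TAATTA, the TEAD motif GGAATG and the AP-1 motif TGANTCA. Of 32851 windows of this length, 12.37% hold the TATA box, 33.85% the CCAAT box, 32.74% the GC box, 9.988% the GATA motif, 4.84% the LIM homeobox motif, 12.64% the TEAD motif and 6.749% the AP-1 motif. The Ecm1 window holds a TATA box starting 27 bases before the start, a GC box at 42 bases and an AP-1 match at 64 bases. The Reln window holds 6 GC boxes, and its GC content is 80.0% with 37 CG pairs, against medians of 52.4% and 6 over all windows. The Rgs5 window has a CCAAT box at 67 bases and a GATA match at 238 bases, both on the opposite strand. Vipr1 has a CCAAT box at 32 bases and GC boxes at 193, 72 and 18 bases, with a GC content of 72.8%. None of the 7 motifs is in the Fcna window, whose GC content is 54.4%. That window lies inside the annotated Fcna span, which reaches to base 25635440. The Ecm1 window likewise lies inside its gene's span, which reaches to base 95739876. The starts used for these genes are thus not the upstream ends of their spans. A match of letters is a description and shows no binding.

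Reln encodes reelin, a large secreted glycoprotein known for guiding neurons and made in the adult liver by stellate cells (mm10 chr5:21884454-22344705). It had 205, 227, 216 and 222 CPM in the HSC-MF-7d libraries, against 4725, 7219, 7948 and 6299.7 CPM in the HSC libraries, and the groups did not overlap. It fell by 4.91 ± 0.32 on the log2 scale (± SE, edgeR adjusted p = 4.1e-11). Even so, the cultured stellate cells held more Reln than fresh portal cells. PMSC libraries had 73.1, 36.2, 25.4 and 54.5 CPM, all below the HSC-MF-7d libraries, and the log2 fold change of HSC-MF-7d over PMSC was 2.19 ± 0.29 (adjusted p = 8.3e-07). Means were 2.58 ± 0.66 CPM in PMSC-MF-3d and 0.840 ± 0.457 CPM in PMSC-MF-7d (SD, n = 4 each). All 4 steps in the order HSC, HSC-MF-7d, PMSC, PMSC-MF-3d, PMSC-MF-7d passed the test with no overlap between neighbouring groups.

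Ecm1 encodes extracellular matrix protein 1, a secreted glycoprotein known in the mouse liver for keeping latent transforming growth factor beta inactive (mm10 chr3:95734147-95739876). It was the least specific of the 8 genes. HSC-MF-7d libraries had 829, 949.5, 906 and 935 CPM, against 6101, 7686, 9821 and 7930.2 CPM in HSC libraries, for a log2 change of -3.12 ± 0.14 (edgeR adjusted p = 1.2e-13). HSC were above PMSC, which had 1218, 1279.9, 1190.0 and 1288 CPM, with a log2 fold change of 2.66 ± 0.13 for HSC over PMSC (adjusted p = 1e-12). HSC-MF-7d were lower than PMSC by the edgeR fit (-0.46 ± 0.13, adjusted p = 0.0025). That small difference turned to 0.0027 with scaling by library totals only (adjusted p = 0.987) and to 0.037 with limma on log2(TPM + 1) (adjusted p = 0.803). PMSC-MF-3d libraries had 170.2, 208, 184 and 192 CPM and PMSC-MF-7d libraries 503, 441, 494 and 653 CPM. Ecm1 was thus lowest in PMSC-MF-3d, and its log2 fold change in PMSC-MF-7d over PMSC-MF-3d was 1.47 ± 0.13 (adjusted p = 7e-08).

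Colec10 encodes collectin liver 1, a soluble C-type lectin that pairs with the Colec11 product and starts the lectin pathway of complement (mm10 chr15:54410774-54466360). It had 0.368, 1.11, 1.23 and 1.65 CPM in the HSC-MF-7d libraries, against 3123, 3453, 4127 and 4204 CPM in the HSC libraries. Culture thus left a trace, 78 counts over 4 HSC-MF-7d libraries against 249027 counts over 4 HSC libraries, and the log2 fold change was -11.74 ± 0.42 (edgeR adjusted p = 2.4e-13). PMSC libraries had 17.0, 6.88, 13.9 and 19.5 CPM, and HSC exceeded PMSC by 8.02 ± 0.35 on the log2 scale (adjusted p = 3.3e-12). Unlike Reln, Colec10 was lower in HSC-MF-7d than in PMSC (log2 fold change -3.72 ± 0.36, adjusted p = 5.2e-08). No PMSC-MF-3d library had a count, and the PMSC-MF-7d libraries had 0, 0, 3 and 1 counts. Against a floor of 3 counts over the PMSC-MF-3d group, or 0.0281 CPM, Colec10 was at least 132668-fold higher in HSC and at least 38.8-fold higher in HSC-MF-7d.

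Fcna encodes ficolin A, a plasma lectin that binds acetylated sugars and works with the same serine proteases as the collectins (mm10 chr2:25624665-25635440). HSC-MF-7d libraries had 6.10, 7.40, 6.20 and 8.92 CPM, against 1754.5, 1770.1, 2148 and 1790.1 CPM in HSC libraries. It fell on the log2 scale by 8.02 ± 0.35 (edgeR adjusted p = 1.5e-13). The HSC libraries lay close together, with replicate 3 alone above the rest. PMSC libraries had 2.13, 1.52, 0.627 and 0.0581 CPM, or 32, 24, 6 and 1 counts. HSC exceeded PMSC by 10.73 ± 0.41 on the log2 scale (adjusted p = 3.9e-14), the largest of the 9 differences between the fresh groups. HSC-MF-7d also stayed above PMSC (log2 fold change 2.71 ± 0.38, adjusted p = 2.5e-06), with no overlap of libraries. PMSC-MF-3d had 5 counts over its 4 libraries and PMSC-MF-7d 16, and those groups overlapped. The RefSeq annotation places the noncoding genes Fcnaos and Gm35630, which are not rows of the gene tables, over parts of Fcna, and the sources used here do not say whether reads were counted by strand.

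Vipr1 encodes a class B receptor coupled to G proteins that binds vasoactive intestinal peptide and the related peptide PACAP (mm10 chr9:121642716-121672954). It had 4.52, 4.36, 4.16 and 5.84 CPM in HSC-MF-7d libraries, against 1802, 1921, 2587 and 2783 CPM in HSC libraries, for a log2 change of -8.91 ± 0.36 (edgeR adjusted p = 4.6e-14). PMSC libraries had 64.3, 43.4, 28.5 and 38.2 CPM, below every HSC library and above every HSC-MF-7d library. The log2 fold change of HSC over PMSC was 5.70 ± 0.30 (adjusted p = 3.2e-12) and that of HSC-MF-7d over PMSC -3.21 ± 0.29 (adjusted p = 5e-09). PMSC-MF-3d had 32 counts in all and PMSC-MF-7d 18, at 0.298 and 0.165 CPM on average, with libraries that overlapped.

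Pth1r encodes the receptor of parathyroid hormone and of its related protein (mm10 chr9:110722085-110747145). HSC-MF-7d libraries had 11.0, 10.03, 7.90 and 9.56 CPM, against 402, 467, 671 and 549.7 CPM in HSC libraries (log2 fold change -5.76 ± 0.28, edgeR adjusted p = 5.9e-13). PMSC libraries had 34.2, 22.0, 32.1 and 33.0 CPM, and HSC exceeded them by 4.11 ± 0.25 on the log2 scale (adjusted p = 2.6e-11). Among cultured cells Pth1r differed little between the lineages. HSC-MF-7d and PMSC-MF-3d differed by -0.00 ± 0.25 with an approximate 95% interval of -0.485 to 0.478 (adjusted p = 1.0). HSC-MF-7d averaged 9.63 ± 1.31 CPM and PMSC-MF-7d 5.80 ± 2.93 CPM with overlapping libraries, a log2 fold change of 0.73 ± 0.25 (adjusted p = 0.022). This call was lost when only those groups were fitted (adjusted p = 0.0629) and when HSC-MF-7d replicate 1, 2 or 4 or PMSC-MF-7d replicate 2 or 3 was left out (adjusted p from 0.0511 to 0.0885).

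Rgs5 encodes a regulator of G protein signalling, a GTPase-activating protein that shortens the signal of hormone receptors and is widely used as a pericyte marker (mm10 chr1:169655501-169695813). HSC-MF-7d libraries had 121, 145, 169 and 137 CPM, against 3494, 4774, 5324 and 4760.2 CPM in HSC libraries, for a log2 change of -5.01 ± 0.28 (edgeR adjusted p = 5.1e-12). PMSC libraries had 77.4, 44.3, 45.3 and 69.0 CPM, below HSC by 6.28 ± 0.30 on the log2 scale (adjusted p = 6.4e-13). The order was HSC, HSC-MF-7d, PMSC and then the portal myofibroblasts, and no neighbouring groups overlapped. HSC-MF-7d stood above PMSC by 1.27 ± 0.24 on the log2 scale (adjusted p = 9.4e-05). PMSC-MF-3d libraries had 0.342, 0, 0.624 and 0.113 CPM and PMSC-MF-7d libraries 0.869, 0.652, 0.916 and 0.778 CPM, 29 and 87 counts in all. The higher level in PMSC-MF-7d than in PMSC-MF-3d (log2 fold change 1.55 ± 0.49, adjusted p = 0.018) was not called when only those groups were fitted (adjusted p = 0.0775) or when PMSC-MF-3d replicate 4 was left out (adjusted p = 0.0672), and it came to 2.37 without PMSC-MF-3d replicate 3.

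Rgs5 also differed between HSC-MF-7d and HSC in a readout other than its level. RSEM reports for each gene a length averaged over its transcripts and weighted by their estimated abundance. The lengths of Rgs5 were read as those of a long transcript of 4096 bases and a short one of 744 bases, both inferred from the deposited lengths, since a library with no count shows their plain mean of 2420.0 bases. On that reading the short transcript made up 4.52%, 6.00%, 3.94% and 5.74% of Rgs5 transcripts in the HSC-MF-7d libraries, against 0%, 0%, 0.099% and 0.088% in the HSC libraries. The groups did not overlap, with means of 5.05% ± 0.98 in HSC-MF-7d and 0.047% ± 0.054 in HSC (SD, n = 4 each; exact permutation test, two-sided, p = 0.0286, the smallest p that 4 against 4 libraries can give). This readout was looked at after the levels were known, for the 9 genes alone. Only Rgs5 was tested on it, so that its p takes no account of the choice of Rgs5. The lengths of Reln, Tmem56, Pth1r and Ecm1, which also have more than a single transcript, overlapped between HSC-MF-7d and HSC libraries. The 4 PMSC libraries held 0% of the short Rgs5 transcript, from 434 to 1188 counts each. PMSC-MF-7d replicate 4 stood at 39.3% but on 22 counts in all, and the other libraries of both portal myofibroblast groups with any count were at 0%. The short transcript's sequence is not known from these files, and its share is an RSEM estimate.

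**Figure D3:**
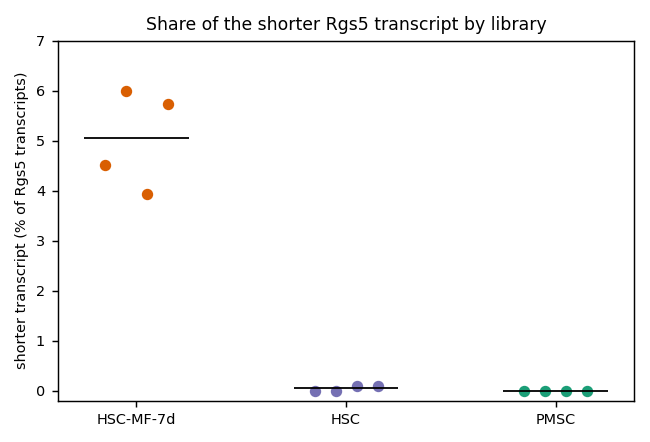
Share of the shorter Rgs5 transcript, in percent of all Rgs5 transcripts as inferred from RSEM lengths, in each library of HSC-MF-7d, HSC and PMSC, with a line at each group mean. HSC-MF-7d libraries lie from 3.94% to 6.00% and HSC libraries at or under 0.099%.

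Tmem56, now named Tlcd4 in RefSeq, encodes a membrane protein with a TLC domain (mm10 chr3:121202008-121283108). HSC-MF-7d libraries had 46.0, 46.8, 48.8 and 49.1 CPM, against 1897, 1951, 3106 and 2488 CPM in HSC libraries (log2 fold change -5.63 ± 0.31, edgeR adjusted p = 3.5e-12). PMSC libraries had 6.58, 10.4, 7.21 and 11.9 CPM, all below HSC-MF-7d, and HSC exceeded PMSC by 8.02 ± 0.35 on the log2 scale (adjusted p = 1.7e-13). HSC-MF-7d stayed above fresh PMSC (log2 fold change 2.39 ± 0.28, adjusted p = 2.2e-07), as for Reln, Rgs5 and Fcna. Those 4 of the 9 genes were higher in HSC-MF-7d than in PMSC and the other 5 lower, where 38.7% of all tested genes were higher and 38.8% lower. PMSC-MF-3d averaged 1.53 ± 0.67 CPM and PMSC-MF-7d 1.81 ± 0.87 CPM, with libraries that overlapped (SD, n = 4 each).

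Cygb encodes cytoglobin, a haem protein that binds oxygen and handles nitric oxide, used in the liver as a marker of stellate cells that are not activated (mm10 chr11:116645595-116654504). In these data it was a gene of both fresh populations. HSC libraries had 256, 407, 375 and 326 CPM, against 1677, 1257, 1073 and 1036 CPM in PMSC libraries, and no library of HSC reached the lowest of PMSC. The log2 fold change of HSC over PMSC was -1.89 ± 0.39 (edgeR adjusted p = 0.00026). In TPM the means were 346 ± 66.1 in HSC and 977 ± 201 in PMSC. HSC-MF-7d libraries had 1.10, 0.811, 1.23 and 1.65 CPM, lower than HSC by 8.15 ± 0.57 on the log2 scale (adjusted p = 1.1e-10). PMSC-MF-3d averaged 6.53 ± 0.48 CPM and PMSC-MF-7d 7.73 ± 6.31 CPM, with PMSC-MF-7d libraries spread from 0.938 to 15.9 CPM. By group mean HSC-MF-7d had the least Cygb. The Cygb span overlaps that of Prcd, a low gene with 1.10 CPM on average in HSC and 2.61 CPM in PMSC.

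The comparison of HSC with PMSC asked how far the 9 genes separate the fresh mesenchymal populations. Of the 9 genes 8 were higher in HSC and 1, Cygb, was lower, where 40.1% of all tested genes were higher and 33.6% lower. The median log2 fold change of the 9 was 6.28, against 0.10 over all genes. PMSC held 0.058% of the HSC level of Fcna, 0.383% of Tmem56, 0.384% of Colec10, 0.722% of Reln, 1.29% of Rgs5, 1.92% of Vipr1, 5.80% of Pth1r and 15.8% of Ecm1, but 369.7% of Cygb. Of the markers of other liver cells, 21 of 22 hepatocyte, 18 of 18 sinusoidal endothelial and 18 of 18 Kupffer genes were also higher in HSC, and 16 of 16 portal fibroblast genes were lower. With scaling by library totals only, the median over all genes was 0.44 instead of 0.10, and 66.7% of called genes were higher in HSC instead of 54.4%, with the 9 genes called as before.

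**Figure D4:**
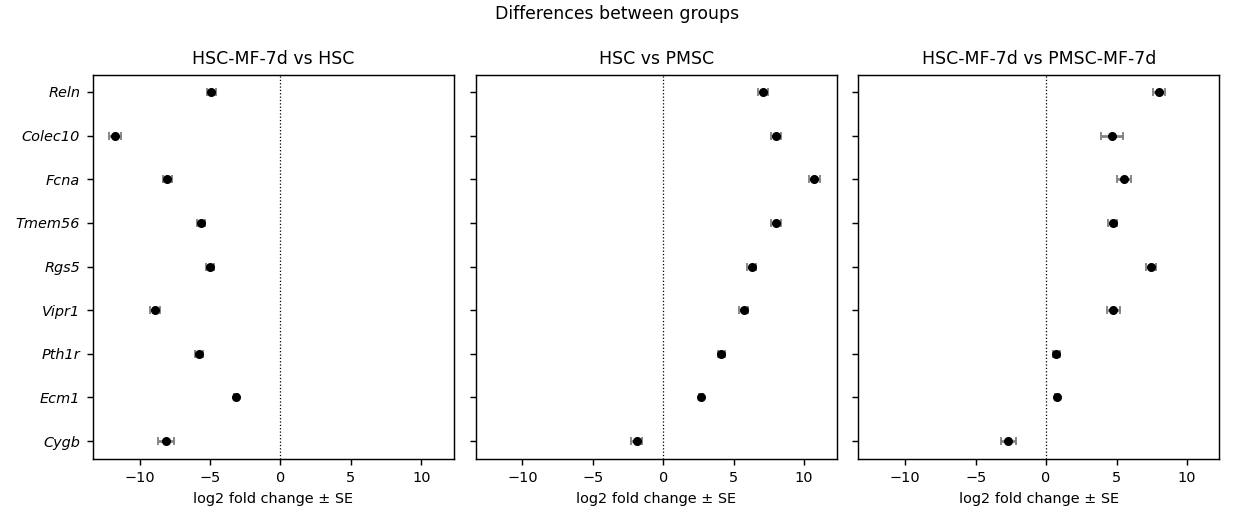
Log2 fold change of each gene with its standard error, for HSC-MF-7d over HSC, HSC over PMSC, and HSC-MF-7d over PMSC-MF-7d, from the edgeR fit to all 20 libraries. All 9 genes lie left of 0 in the first panel, and Cygb alone lies left of 0 in the other panels.

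The comparison of HSC-MF-7d with PMSC-MF-7d asked whether the genes still mark the stellate lineage after culture. Of the 9 genes 8 were higher in HSC-MF-7d and 1, Cygb, was lower, where 23.1% of all tested genes were higher and 23.9% lower. When only these groups were filtered and fitted, 6 genes were higher, since Pth1r lost its call and Colec10 did not pass the filter on low counts, which it passes through the fresh groups. Reln averaged 217 ± 9.36 CPM in HSC-MF-7d and 0.840 ± 0.457 CPM in PMSC-MF-7d, for a log2 change of 8.02 ± 0.40 (edgeR adjusted p = 1.2e-11). Rgs5 averaged 143 ± 19.96 CPM in HSC-MF-7d and 0.804 ± 0.116 CPM in PMSC-MF-7d, a log2 fold change of 7.46 ± 0.34 (adjusted p = 5.3e-12). These were the largest differences, on levels that were a few percent of those in fresh HSC. Their portal side rested on 89 counts for Reln and 87 counts for Rgs5. Fcna (5.53 ± 0.47), Vipr1 (4.77 ± 0.46), Tmem56 (4.72 ± 0.32) and Colec10 (4.66 ± 0.77) followed on the log2 scale, with adjusted p at or below 0.0001. For Fcna, Vipr1 and Colec10 the portal side rested on 16, 18 and 4 counts, and single libraries moved the value. The difference was 6.12 for Fcna without PMSC-MF-7d replicate 2, 5.86 for Vipr1 without PMSC-MF-7d replicate 1 and 5.87 for Colec10 without PMSC-MF-7d replicate 3. Ecm1 was 1.73-fold higher in HSC-MF-7d (log2 fold change 0.79 ± 0.13, adjusted p = 3.4e-05). Cygb was lower by 2.70 ± 0.53 on the log2 scale (adjusted p = 0.00034), and by 2.08 without PMSC-MF-7d replicate 1. Its HSC-MF-7d side rested on 86 counts. The libraries overlapped, with PMSC-MF-7d replicate 2 at 0.938 CPM and HSC-MF-7d from 0.811 to 1.65 CPM.

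Since the design text places the stellate culture at 3 days, HSC-MF-7d were also compared with PMSC-MF-3d. Here 7 of the 9 genes were higher in HSC-MF-7d, Cygb was lower and Pth1r was not called, where 27.4% of all tested genes were higher and 27.2% lower. When only these groups were filtered and fitted, 6 were higher, since Colec10 did not pass the filter on low counts. Rgs5 differed by 9.01 ± 0.39 on the log2 scale (edgeR adjusted p = 1.5e-12), or 9.82 without PMSC-MF-3d replicate 3, and Reln by 6.39 ± 0.36 (adjusted p = 3.7e-11). Fcna differed by 7.08 ± 0.56 (adjusted p = 3.9e-09), or 7.83 without PMSC-MF-3d replicate 3. Ecm1 differed by 2.26 ± 0.13 (adjusted p = 5.2e-11). Of the sinusoidal endothelial and Kupffer markers, 14 of 18 and 13 of 18 were also higher in HSC-MF-7d than in PMSC-MF-7d. Of all tested genes 23.1% were higher in that comparison. The sums of those markers were 292 to 335 CPM and 64.9 to 100.3 CPM in HSC-MF-7d, against 147 to 341 CPM and 16.5 to 23.3 CPM in PMSC-MF-7d. Whether other cells carried over into the cultures added to the trace levels of Fcna, Vipr1 or Colec10 was not tested.

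The 9 genes were also lower after portal culture. All 9 genes were lower in PMSC-MF-3d than in PMSC, where 41.1% of all tested genes were lower and 37.2% higher, and all 9 were lower in PMSC-MF-7d than in PMSC, where 39% were lower and 38.1% higher. With scaling by library totals only, the median over all genes was 0.41 and 0.43 in these comparisons instead of -0.07 and -0.00, and the 9 genes were called lower as before. When only the compared groups were filtered and fitted, 8 genes were lower in each comparison, since Fcna, which passes the filter on low counts through HSC, dropped out. Of other cell types' markers, 21 of 22 hepatocyte, 16 of 18 sinusoidal endothelial and 9 of 18 Kupffer genes were also lower in PMSC-MF-7d than in PMSC. In each of these lists 1 gene was higher. Whether other cells in PMSC, stellate cells among them, share in the PMSC levels of the 9 genes was not tested. As a share of the PMSC mean, PMSC-MF-7d kept 42.0% of Ecm1, 20.03% of Tmem56, 19.1% of Pth1r and 14.2% of Fcna, but 1.78% of Reln, 1.36% of Rgs5, 0.613% of Cygb, 0.379% of Vipr1 and 0.254% of Colec10. The share of Fcna rests on 16 counts in PMSC-MF-7d and 63 counts in PMSC, with libraries that overlapped. The low shares of Vipr1 and Colec10 rest on few counts too. Their log2 fold changes of -7.98 and -8.38 came to -9.05 for Vipr1 without PMSC-MF-7d replicate 1 and -9.57 for Colec10 without PMSC-MF-7d replicate 3. Cygb fell to 7.73 ± 6.31 CPM in PMSC-MF-7d, against 1261 ± 294 CPM in PMSC (log2 fold change -7.34 ± 0.51, edgeR adjusted p = 8.7e-11, and -7.94 without PMSC-MF-7d replicate 1). The fall of Cygb in stellate culture minus that in portal culture was -0.81 ± 0.67 with an approximate 95% interval of -2.12 to 0.494 (adjusted p = 0.31). It came to -0.20 without PMSC-MF-7d replicate 1, and to -1.19 without PMSC-MF-7d replicate 2, where it was called (adjusted p = 0.0222). Between PMSC-MF-7d and PMSC-MF-3d, Rgs5 and Ecm1 were higher and Reln and Pth1r lower, while 5 genes were not called, where 18.6% of all tested genes were higher and 17.4% lower.

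The fall in stellate culture (HSC-MF-7d against HSC) was then tested against the fall in portal culture (PMSC-MF-7d against PMSC) as a difference of log2 fold changes. Tmem56 fell further in stellate culture by 3.29 ± 0.42 on the log2 scale (edgeR adjusted p = 1.4e-06), Pth1r by 3.38 ± 0.34 (adjusted p = 8.4e-08), Ecm1 by 1.87 ± 0.18 (adjusted p = 3.1e-08) and Fcna by 5.20 ± 1.01 (adjusted p = 0.00018). Rgs5 fell less in stellate culture, by 1.18 ± 0.40 (adjusted p = 0.016). These were 4 genes lower and 1 higher, where 31.4% of all tested genes were lower and 29.2% higher, and the other 4 genes were not called. Of those 4, Reln was called higher by DESeq2 (0.99, adjusted p = 0.0335) and without PMSC replicate 2 or 3, and lower by limma on log2(TPM + 1) (-2.08). Colec10 was called lower by DESeq2 (-3.07, adjusted p = 0.00171) and by limma on log2(TPM + 1) (-7.61) and log2(TPM + 0.1) (-6.07), and Vipr1 by limma alone (-4.41 and -2.27). Several of these genes started low in PMSC, at 1.08 CPM for Fcna and 9.03 CPM for Tmem56. A floor of 3 counts over PMSC-MF-7d is 0.0279 CPM. Fcna could thus not have shown a portal fall as deep as its log2 fold change of -8.02 in stellate culture. The part of the low starts in the differences was otherwise not tested. The Rgs5 call was lost with scaling by library totals only (0.84, adjusted p = 0.0829) and turned with limma on log2(TPM + 1) (-0.76, adjusted p = 0.00941). With totals only, the median of all genes was -0.44 instead of -0.10, and 34% of called genes were higher instead of 48.2%. The approximate 95% interval for the Fcna difference was -7.17 to -3.22, and it came to -4.61 without PMSC-MF-7d replicate 2.

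The partners of the 9 genes were described from lists of the pathways they belong to. Reelin acts through the receptors Vldlr and Lrp8 and the adaptor Dab1. Vldlr averaged 4.49 ± 1.10 CPM in HSC-MF-7d, 0.627 ± 0.570 CPM in HSC and 47.9 ± 10.1 CPM in PMSC. Lrp8 rose in HSC-MF-7d, with 19.1 ± 1.60 CPM against 0.786 ± 0.383 CPM in HSC (log2 fold change 4.60 ± 0.24, edgeR adjusted p = 1.8e-12). Thus the reelin receptors were low in the cells with the most Reln. Dab1 did not pass the filter on low counts, with means at or below 0.146 CPM in all groups. Of the 9 tested genes of this list, 6 were higher and 1 lower in HSC-MF-7d than in HSC, with a median log2 fold change of 0.98, where 36% of all tested genes were higher and 38.5% lower in that comparison. The higher ones included the integrin genes Itga3 (2.02 ± 0.19) and Itgb1 (1.68 ± 0.09), while the kinase gene Fyn was lower (-1.53 ± 0.13).

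Of the lectin pathway, 12 of 13 listed genes were tested. Of these, 11 were lower in HSC-MF-7d than in HSC, where 38.5% of all tested genes were lower and 36% higher. The median log2 fold change of the 12 was -7.40. Colec11, the partner of Colec10, fell to 4.12 ± 1.08 CPM in HSC-MF-7d, against 1796 ± 242 CPM in HSC (-8.76 ± 0.40, edgeR adjusted p = 2.8e-13). Masp1, a protease these lectins carry, kept far more. It had 1558 ± 81.1 CPM in HSC-MF-7d and 3103 ± 538 CPM in HSC, or 50.2% (log2 fold change -0.99 ± 0.24, adjusted p = 0.00096). Masp2, also on the list, kept only 0.770% of its HSC mean. C3 and C4b, complement genes that hepatocytes also express, had log2 fold changes of -10.88 ± 0.94 and -10.21 ± 0.78 and ranged widely between HSC libraries (849 ± 818 CPM and 749 ± 406 CPM). C3 was lower in HSC than in PMSC, which had 12802 ± 2702 CPM (log2 fold change -3.91 ± 0.63), and so was C4b, with 5059.6 ± 1659 CPM in PMSC (-2.76 ± 0.51). Mbl1 and Mbl2, the hepatocyte mannose-binding lectins, had no count in HSC-MF-7d and 13.4 ± 10.9 and 16.3 ± 12.1 CPM in HSC. Colec12, a scavenger receptor of another collectin branch, was lower in HSC too, with 16.9 ± 1.04 CPM in HSC and 828 ± 121 CPM in PMSC (-5.61 ± 0.23, adjusted p = 8.4e-14). In HSC over PMSC 6 genes of the list were higher and 6 lower, where 40.1% of all tested genes were higher and 33.6% lower.

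Among relatives of Rgs5 in the R4 family, 6 of 9 listed genes were tested, and 4 were lower and 2 higher in HSC-MF-7d than in HSC, where 38.5% of all tested genes were lower and 36% higher. Rgs4 averaged 57.3 ± 5.19 CPM in HSC-MF-7d, 208 ± 76.3 CPM in HSC and 4.81 ± 0.84 CPM in PMSC, an order like that of Rgs5. Rgs2 fell to 1.86 ± 0.76 CPM in HSC-MF-7d against 91.0 ± 37.4 CPM in HSC (log2 fold change -5.60 ± 0.34). Rgs16 rose instead, with 236 ± 24.2 CPM in HSC-MF-7d against 9.47 ± 9.18 CPM in HSC (4.64 ± 0.43, edgeR adjusted p = 8.2e-09). Rgs1, a gene of blood cells, had 0.152 ± 0.115 CPM in HSC-MF-7d and 189.6 ± 119 CPM in HSC.

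Of the class B receptors related to Vipr1 and Pth1r and their partners, 11 of 22 listed genes were tested. Of these, 7 were lower and 1 higher in HSC-MF-7d than in HSC, where 38.5% of all tested genes were lower and 36% higher. The median log2 fold change of the 11 was -3.23. The hormones themselves were at or near 0: Pth had no count in any library, Vip averaged at most 0.0789 CPM and Pthlh at most 3.21 CPM, in PMSC. In HSC over PMSC 4 genes of the list were higher, 5 lower and 2 not called, where 40.1% of all tested genes were higher and 33.6% lower. Gcgr, the glucagon receptor, had 55.6 ± 7.73 CPM in HSC and 0.111 ± 0.221 CPM in PMSC, and Calcrl, the adrenomedullin and CGRP receptor, 937 ± 157 CPM in HSC and 21.4 ± 7.29 CPM in PMSC, both expressed by other liver cells as well. Vipr2, the other VIP receptor, went the opposite way to Vipr1, with 0.0576 ± 0.0780 CPM in HSC and 16.5 ± 4.97 CPM in PMSC (log2 fold change -7.97 ± 0.77, edgeR adjusted p = 1.5e-08), as did Glp2r (-2.88 ± 0.30). In HSC-MF-7d against HSC, the accessory genes Ramp1 and Ramp2 changed by -5.93 ± 0.31 and -6.11 ± 0.21. Gnas, which encodes the G protein subunit these receptors signal through, was instead higher in HSC-MF-7d (0.45 ± 0.07, adjusted p = 7.1e-06).

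For Cygb, the globin genes Mb and Ngb gave no counterpart, since Mb averaged at most 0.394 CPM and Ngb at most 9.22 CPM, both in PMSC. Of 10 tested genes of oxygen and nitric oxide handling, 7 were lower in HSC-MF-7d than in HSC and 3 were not called by edgeR. Of all tested genes 38.5% were lower in that comparison. The largest fall was that of Nos3, the endothelial nitric oxide synthase gene, with 0.0170 ± 0.0341 CPM in HSC-MF-7d and 43.9 ± 7.68 CPM in HSC. Its log2 fold change was -11.1 ± 1.16 (edgeR adjusted p = 4.6e-08). Gucy1a1 and Gucy1b1, the subunits of the nitric oxide receptor, fell by 2.86 ± 0.32 and 1.57 ± 0.21 on the log2 scale. For Ecm1, the genes that store and release transforming growth factor beta were called both ways, with 8 of 15 higher and 6 lower in HSC-MF-7d than in HSC, where 36% of all tested genes were higher and 38.5% lower. Thbs1, an activator, rose to 11488 ± 203 CPM in HSC-MF-7d against 124 ± 34.4 CPM in HSC (6.53 ± 0.19, adjusted p = 4.8e-16). Ltbp2 rose by 7.32 ± 0.41 and Ltbp4 fell by 6.57 ± 0.24 on the log2 scale. In HSC over PMSC, 11 of the 15 were lower and 2 higher, where 33.6% of all tested genes were lower and 40.1% higher.

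The fall of the 9 genes was set beside 30 other stellate markers and 18 markers of activation. Of the other stellate markers 27 fell in HSC-MF-7d, 2 rose and 1, Gata6, was not called (edgeR adjusted p = 0.61). Of all tested genes 38.5% were lower and 36% higher in that comparison. The median log2 fold change of these markers was -3.86 and their median share kept was 7.28%. The median share kept of the 9 genes was 1.84%. Lrat kept 0.0407%, Steap4, a metalloreductase, 0.0687% and Angptl6 0.0798%, against 0.0292% for Colec10. Bco1, which cleaves carotenoids to retinal, rose to 1313 ± 45.1 CPM in HSC-MF-7d against 135 ± 19.7 CPM in HSC (log2 fold change 3.28 ± 0.23, edgeR adjusted p = 1.5e-10), and the lipid droplet gene Plin2 rose by 0.31 ± 0.12 on the log2 scale (adjusted p = 0.02). Of the activation markers 14 of 18 were higher in HSC-MF-7d than in HSC and 1 lower, beside 36% and 38.5% of all tested genes. Acta2, smooth muscle actin, had 3218 ± 372 CPM in HSC-MF-7d and 8.46 ± 2.87 CPM in HSC, and the collagen cross-linker Lox had 1405 ± 169 CPM in HSC-MF-7d and 5.84 ± 4.68 CPM in HSC. Timp1, an inhibitor of matrix proteases, had 413 ± 13.3 CPM in HSC-MF-7d and 2.43 ± 2.36 CPM in HSC.

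**Figure D5:**
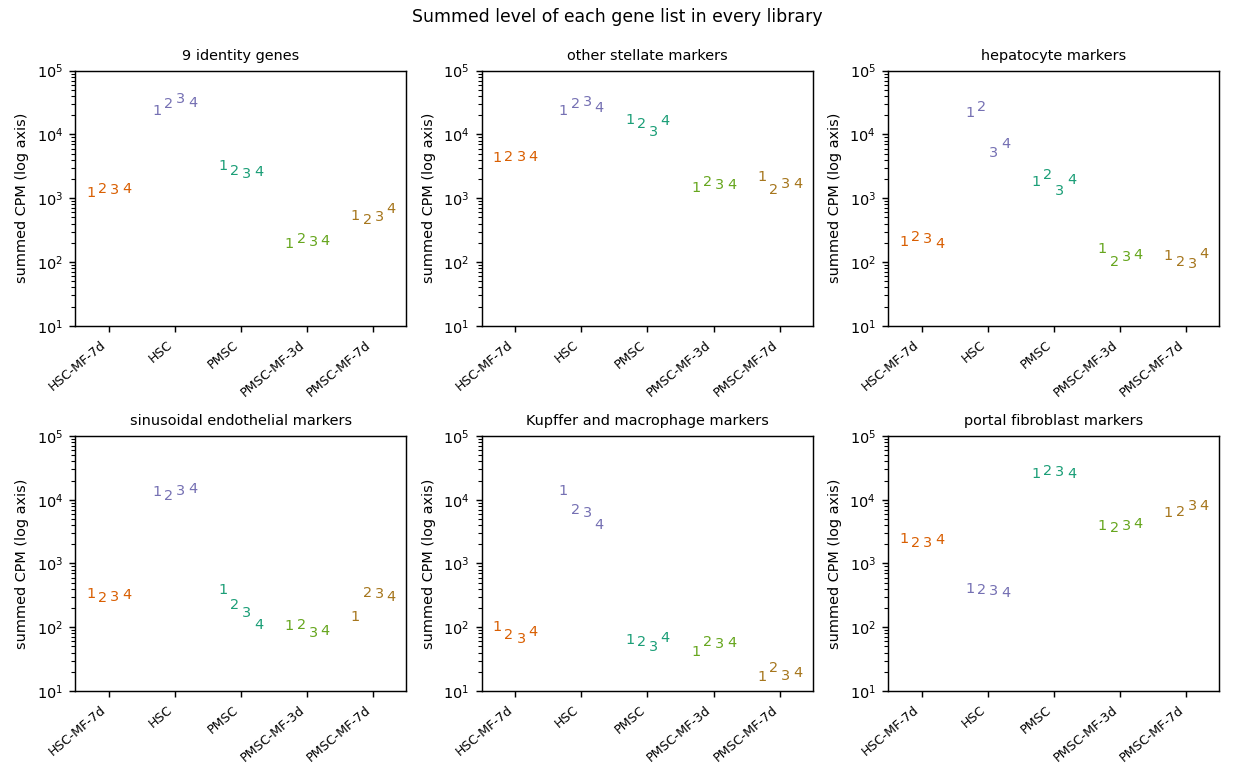
Summed CPM on a log axis of the 9 genes and of 5 marker lists in every library, by group, each library drawn as its replicate number. The 9 genes sum to 1223 to 1392 CPM in HSC-MF-7d and 23555 to 36107 CPM in HSC, and HSC replicates 1 and 2 lie above replicates 3 and 4 for hepatocyte markers.

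Over the 20 libraries the 9 genes moved together except for Cygb. Pearson's r of log2 CPM between pairs of the other 8 genes ran from 0.809 (Rgs5 with Pth1r) to 0.981 (Colec10 with Vipr1). With Cygb it ran from 0.357 (Fcna) to 0.714 (Vipr1). These are descriptions over libraries that share 5 groups, so that they mostly reflect the group means. Among 9485 genes with at least 20 CPM in some group, those closest to Colec10 were Stab2 (r = 0.994), Trim14 (0.989) and Fcgr2b (0.988), of which Stab2 and Fcgr2b are receptors of sinusoidal endothelium. Closest to Fcna were Smagp (0.993), Lcp2 (0.991), a blood cell adaptor, and Psen2 (0.989). Closest to Rgs5 were Hs3st3b1 (0.990), the endothelial gene Plvap (0.988) and Sema6d (0.983), and closest to Pth1r were Hlx (0.989), Arrb2 (0.987) and Clec1b (0.982). Reln lay closest to Gucy1b1 (0.986), Ptafr and Plxnd1 (0.984 each), Tmem56 to Dcdc2a (0.988), Dram2 (0.980) and Dusp3 (0.979), and Vipr1 to Dhdh (0.990), Dazap2 and Gdf2 (0.989 each). Ecm1 lay closest to Slmap, Slc8b1 (0.984 each) and Fgfr2 (0.983), and Cygb to Tshz2 (0.992), Tnfrsf1a and Dhrs7 (0.990 each). Several of these are genes of endothelial or blood cells, whose markers were also higher in HSC than in PMSC, and whether such cells share in the levels of the 9 genes was not tested.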

How the data were processed

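RNA-seq of 20 libraries in 5 groups was analysed, with groups and replicate numbers taken from the sample titles. Per the labels' protocols, RNA was extracted with the RNeasy Micro kit and libraries were made with the KAPA Stranded mRNA-Seq kit. The submitters' processing notes name FastQC, Trimmomatic, STAR 2.5.3a, RSEM 1.2.28 and the build mm10. The authors deposited 1 RSEM gene table per library. Per the file headers these hold an expected count per gene, estimated by RSEM from the aligned reads, which entered the tests after rounding to whole numbers. Per the file headers they also hold TPM, used for comparing genes and for the limma alternatives, FPKM, which entered no test, and a mean transcript length, used for Rgs5. No label ties a library to its own animal or culture, so that each p-value reflects the spread among libraries alone, which may be technical. No replicates were alike within sampling noise. The chi-square per degree of freedom between replicates, larger where libraries differ more, ran from 3.47 to 11.94 in HSC-MF-7d. That was the lowest of the 5 groups, and it ran from 24.93 to 92.11 in HSC. Whether the HSC-MF-7d libraries share a culture was not tested.

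Counts of 24848 genes were filtered with edgeR 4.0.16 in R 4.3.3, which left 14751 genes and removed 10097. Library sizes were scaled by TMM and all 5 groups were fitted together with edgeR's quasi-likelihood test. Benjamini-Hochberg adjustment ran over all tested genes, and a gene was called at an adjusted p under 0.05. Errors of log2 fold changes are standard errors, and approximate 95% intervals were derived from them. The fit was tested on simulated data. DESeq2 1.42.0 and limma 3.58.1 served as alternatives, and Python 3.11.15 with scipy 1.17.1 ran the exact test. Single libraries were left out in turn, 20 in all. A level of 0 was replaced by a floor of 3 counts over the group for lower bounds, and floors cover counting error only.

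The 9 genes and all gene lists were chosen with earlier results of these data known. Named from each list were up to 4 genes with the largest called change and a mean of 10 CPM or more in the group with more, in HSC over PMSC or HSC-MF-7d over HSC. Masp1, Masp2, Adamtsl2, Dab1, Gnas, Plin2, Gata6, Mb, Ngb and the hormone genes fall outside that rule. They were chosen after their values were seen, as were the limits of 1% and 20% kept. The 3 nearest genes were taken by Pearson's r of log2 CPM with a prior count of 2 among genes of at least 20 CPM in 1 group.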

Additional observations from a re-analysis of the deposited data

Results flagged for a closer look

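A single library stood apart from its group for 2 genes, among 44 groups of values of the 9 genes that were checked, where chance flags about 1 in 20. HSC replicate 3 had 2148 CPM of Fcna, above the other HSC libraries. PMSC-MF-3d replicate 2 had 5.81 CPM of Cygb, below the other PMSC-MF-3d libraries. The change in stellate culture differed from that in portal culture, by edgeR's test of the difference, for 5 genes. On the log2 scale the difference was -5.20 for Fcna, -3.29 for Tmem56, 1.18 for Rgs5, -3.38 for Pth1r and -1.87 for Ecm1, where a negative value is a larger fall in HSC-MF-7d. Fcna started at 1.08 CPM in PMSC, so that a portal fall as deep as that in stellate culture could not have been seen.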

How the results depend on the processing

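The calls of all 9 genes in HSC-MF-7d against HSC and in HSC against PMSC were the same under the 7 alternatives and without any single library. For the difference of culture changes, 1 gene was higher in the edgeR fit, 2 with DESeq2, 0 with scaling by library totals only and with limma on log2(TPM + 1) or log2(TPM + 0.1), and 1 to 2 without single libraries. Instead of 4 genes lower in it there were 5 with DESeq2, 6 with limma on log2(TPM + 0.1), 8 with limma on log2(TPM + 1) and 4 to 5 without single libraries. With limma on log2(TPM + 1), 7226 of all genes were lower in it (7019 with log2(TPM + 0.1)) instead of 4633. Between PMSC-MF-7d and PMSC-MF-3d, 1 gene was higher and 1 lower, instead of 2 and 2, when only those groups were fitted and with limma on log2(TPM + 1), and 1 to 2 each without single libraries. The cause of these shifts was not tested.

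Log2 differences that turned were small or not called in the edgeR fit, other than those of Ecm1 and Rgs5. Ecm1 in HSC-MF-7d against PMSC was 0.0027 with totals only and 0.037 with limma at either pseudocount. Pth1r in HSC-MF-7d against PMSC-MF-3d was 0.092 with log2(TPM + 1) and 0.099 with log2(TPM + 0.1), and ran from -0.085 to 0.067 without single libraries. Cygb in PMSC-MF-7d against PMSC-MF-3d was -0.080 and -0.216 with these pseudocounts, and ran from -0.372 to 0.615 without single libraries. Tmem56 in that comparison ran from -0.065 to 0.493. In the difference of culture changes Reln was -2.08 with log2(TPM + 1) and -0.088 with log2(TPM + 0.1), Rgs5 was -0.756 with log2(TPM + 1), and Vipr1 ran from -1.27 to 0.159 without single libraries.

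No pairing of the libraries by the replicate numbers of their titles was seen. Deviations from group means had a median r of 0.00108 (-0.0518 to 0.145) for same-numbered libraries of different groups. For other-numbered libraries it was -0.00204 (-0.201 to 0.141). Pairing in another order was not tested, and sharing of an animal or culture cannot be told from these values. With the replicate number as a block, 9 genes were lower in HSC-MF-7d than in HSC, 8 were higher and 1 lower in HSC than in PMSC, and 5600 of all genes were lower in HSC-MF-7d than in HSC instead of 5674. The block changed no call of the 9 genes. Depth limits Colec10, Fcna, Vipr1 and Rgs5 in the portal myofibroblasts, where a group held at most 87 counts. It also limits Reln in PMSC-MF-7d, which held 89 counts.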
